A study of Mus musculus with 6 samples.

Results

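Astrocyte genes were followed in bulk RNA sequencing of mouse dorsal striatum as a list of 33 genes matched by symbol, covering astrocyte identity, glutamate uptake, gap junctions, ion and water transport, metabolism and the metallothioneins. All 33 had 1 row each among the 23067 genes of the table. The libraries came from mice at postnatal day 21, 3 libraries with G2019S on both alleles of Lrrk2, a kinase gene linked to inherited Parkinson's disease (knock-in), and 3 with wild-type Lrrk2 on both alleles (wild type). The labels name no treatment for either group. The titles call all mice male, yet Xist, the RNA of the inactive X chromosome of females, was at 27.2 to 39.3 FPKM in knock-in and 31.4 to 33.02 FPKM in wild-type libraries, and 0 of 4 Y-linked genes looked for had a row, so the libraries of both genotypes went against that part of the label alike.

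Astrocytes take up glutamate released at synapses, convert it to glutamine, buffer extracellular potassium, and form a network coupled by gap junctions. Their endfeet on blood vessels carry water and potassium channels, and they supply neurons with lactate and lipoproteins. In striatum they lie among the projection neurons and the glutamatergic and dopaminergic inputs that those neurons receive. GFAP, the classic marker filament, is unevenly expressed among them and is sparse in much of the grey matter.

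The level of a gene is given in FPKM, fragments scaled by transcript length and by library size, which allows genes of different length to be set side by side. Differences are of log2(FPKM + 1), knock-in minus wild type, with a standard error (SE) and with p-values from limma, two-sided and adjusted over all 14156 genes that averaged 1 FPKM or more. Calls needed an adjusted p under 0.05. In whole tissue, fewer astrocytes and less RNA per astrocyte cannot be told apart. The labels do not say whether samples of one genotype are separate animals, and the p-values therefore rest on a spread that may be partly technical.

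The striatum label held on projection neuron markers, which do not check the dorsal part or the absence of other tissue. The projection neuron receptor genes Drd1 and Drd2 were at 73.6 to 92.6 FPKM and 120 to 128 FPKM in the knock-in libraries, and at 75.8 to 81.2 FPKM and 121 to 122 FPKM in the wild-type libraries. Libraries stood apart in other markers. Knock-in replicate 3 had 23.2% of its summed FPKM in mitochondrially encoded genes, against 18.0% to 20.5% in the other 5 libraries. Slc17a7, which loads glutamate into vesicles of cortical neurons, had 29.9, 25.2 and 3.41 FPKM in knock-in replicates 1 to 3, and 10.95, 3.55 and 2.73 FPKM in wild-type replicates 1 to 3. Ttr, the choroid plexus transthyretin, reached 374 FPKM in wild-type replicate 2 and 2.12 to 16.2 FPKM elsewhere. Lrrk2 itself was at 11.9 ± 0.579 FPKM in knock-in and 11.3 ± 0.625 FPKM in wild type (SD, n = 3 each), which does not check a point change.

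All 33 astrocyte genes passed the minimum level, and their mean levels ran from 4.38 FPKM for Sox9 to 484 FPKM for Sparcl1. The matrix protein gene Sparcl1, the lipid carrier gene Apoe, Ndrg2, the glutamine synthetase gene Glul, the aldolase gene Aldoc, the secreted chaperone gene Clu, Mt3 and the glutamate transporter gene Slc1a2 were the highest in that order, and these 8 genes held 68.1% of the summed level of the 33. At the other end, 10 genes lay under 20 FPKM, among them the connexin genes Gja1 and Gjb6 and the water channel gene Aqp4.

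No astrocyte gene was called between genotypes, 0 of 33 in either direction, where 0.0212% of all tested genes were called (3 of 14156), 0.0141% as higher and 0.00706% as lower in knock-in. At an unadjusted p under 0.05 the count was also 0 of 33, against 4.27% of all genes (604 of 14156). The lowest adjusted p among the 33 was 0.997. Their log2 differences lay between -0.42 for Gfap and 0.12 for Atp1b2, with a median of -0.04, beside a median of -0.01 over all genes tested. The 95% interval of the fold lay within a factor of 1.2 either way for 15 of the 33 genes and within a factor of 1.5 for 32, the exception being Gfap, with an interval from 0.457 to 1.22.

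**Figure D1:**
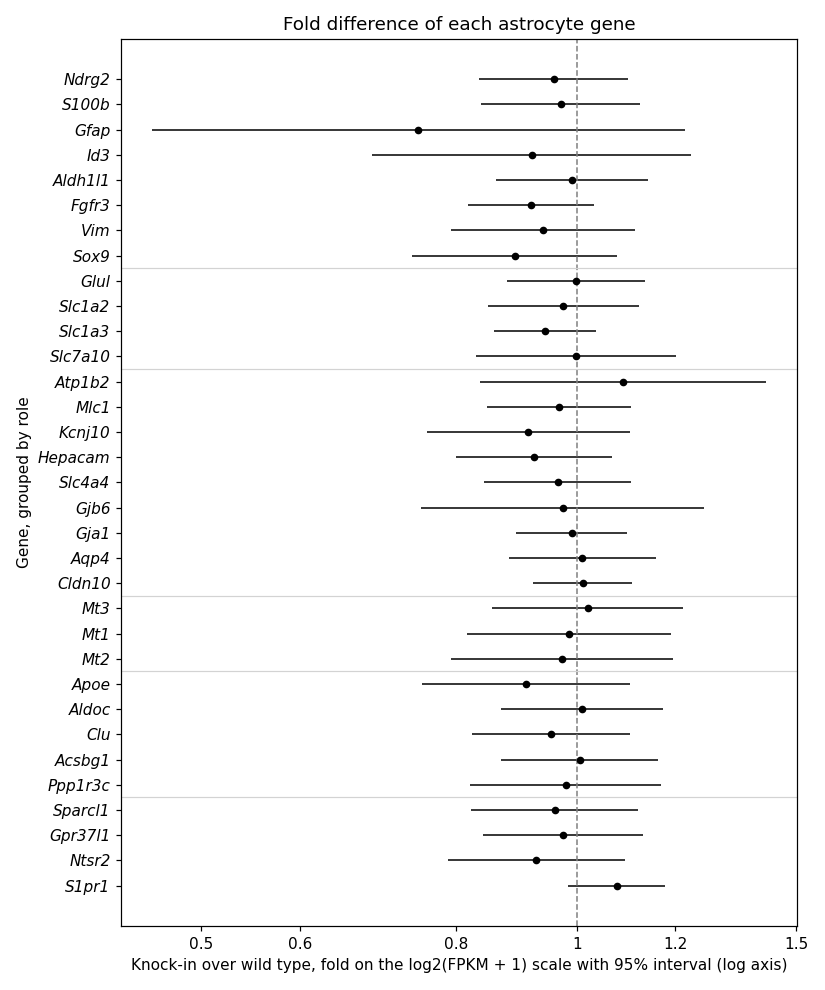
Fold difference of each of the 33 astrocyte genes, knock-in over wild type, on the log2(FPKM + 1) scale (x axis, logarithmic) with its 95% limma interval (bars, 3 libraries per genotype), by gene and grouped by role (y axis). Each interval takes in a fold of 1, and that of Gfap is the widest, from 0.457 to 1.22.

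More of the genes lay below wild type than above it, 26 lower and 7 higher, where 56.4% of all tested genes were lower (22 lower and 11 higher with median-of-ratios scaling of the libraries, where 48.7% of all genes were lower). This balance rested on 1 library. Knock-in replicate 3 was the lowest of the 6 libraries for 28 of the 33 genes, against 32.0% of all genes tested, and lay below the wild-type mean for 30 of them, against 61.5% of all genes. Knock-in replicates 1 and 2 lay below that mean for 12 and 9 genes. Without knock-in replicate 3 the count turned to 10 lower and 23 higher, with a median log2 difference of 0.04, 52.1% of all genes then being lower and 0 of the 33 called.

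Per library, the median over the 33 genes, set against the wild-type mean, came to 0.03, 0.04 and -0.20 on the log2 scale in knock-in replicates 1 to 3, and 0.05, -0.02 and -0.03 in wild-type replicates 1 to 3. Knock-in replicates 1 and 2 thus stood within the wild-type span and replicate 3 below it. The same held for the summed level, which was 3742, 3724 and 3159 FPKM in knock-in replicates 1 to 3 and 3837, 3553 and 3552 FPKM in wild-type replicates 1 to 3. As a share of all summed FPKM that was 0.942% in knock-in replicate 3 and between 1.117% and 1.19% in each of the rest. The median over all genes tested in knock-in replicate 3 was -0.04, and the part of its mitochondrial share in the lower astrocyte levels was not tested.

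**Figure D2:**
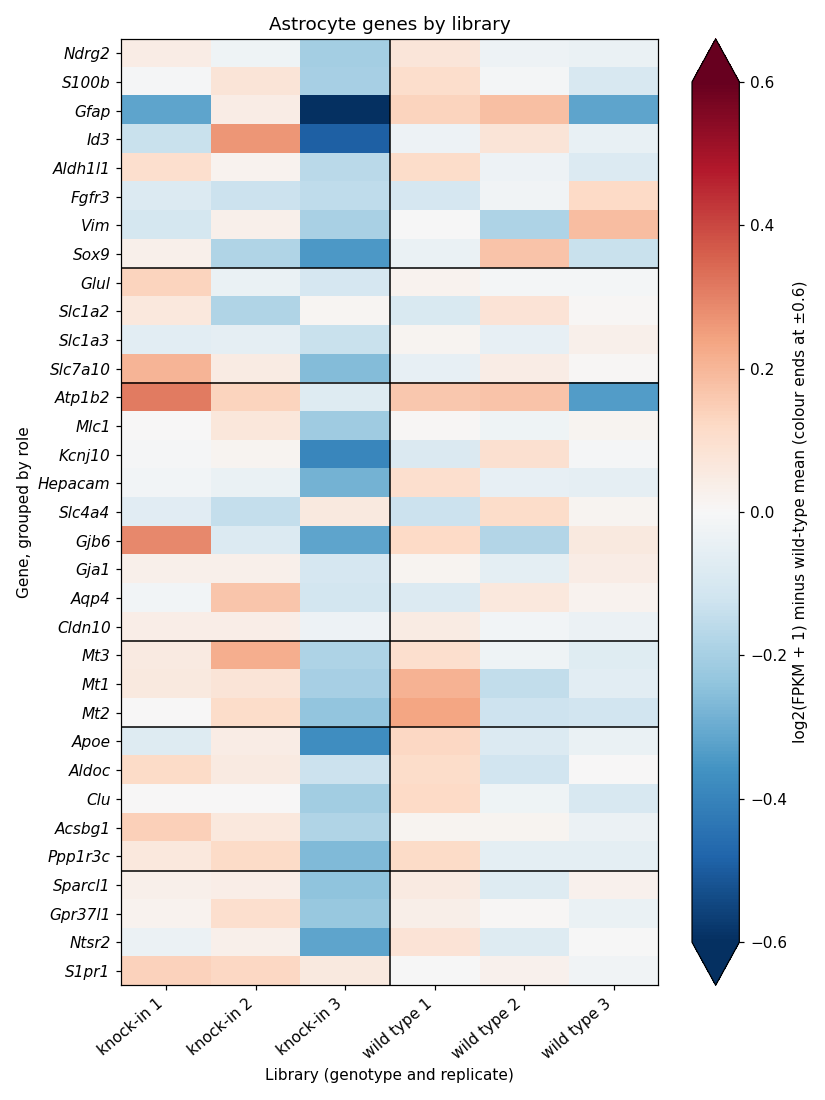
Level of each of the 33 astrocyte genes (rows, grouped by role) in each library (columns), as log2(FPKM + 1) minus the mean of the 3 wild-type libraries, with blue lower and red higher and the colour scale ending at 0.6 either way. The column of knock-in replicate 3 is blue for 30 of the 33 genes, while knock-in replicates 1 and 2 are mixed.

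Of the identity and cytoskeletal genes 8 of 8 were lower on average in knock-in, 7 with median-of-ratios scaling and 4 without knock-in replicate 3, and 0 of 8 were called. Gfap, which encodes the intermediate filament of fibrous and reactive astrocytes, had 28.2, 36.4 and 17.2 FPKM in knock-in replicates 1 to 3, against 38.9, 40.2 and 28.1 FPKM in wild-type replicates 1 to 3. Knock-in replicate 2 lay between the wild-type libraries, knock-in replicate 1 was level with wild-type replicate 3, and knock-in replicate 3 was the lowest. The mean was 27.3 ± 9.62 FPKM in knock-in and 35.7 ± 6.61 FPKM in wild type (SD, n = 3 each), a log2 difference of -0.42 (SE 0.29, adjusted p = 0.997). Gfap was the most variable of the 33 genes, with a 2.33-fold span between its highest and lowest library and a within-group SD of 0.42 on the log2 scale, against a median of 0.12 for the 33 genes and 0.098 for all genes tested. Without knock-in replicate 3 its log2 difference was -0.14.

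Sox9, the transcription factor that sets astrocyte fate, had 4.78, 4.00 and 3.46 FPKM in knock-in replicates 1 to 3, against 4.52, 5.38 and 4.17 FPKM in wild-type replicates 1 to 3. The highest library was wild type and the lowest knock-in, and the genotypes overlapped (log2 difference -0.17, SE 0.12). Fgfr3, a fibroblast growth factor receptor of astrocytes and their precursors, had 6.77, 6.52 and 6.39 FPKM in knock-in, against 6.66, 7.12 and 7.95 FPKM in wild type. Here 2 of the 3 knock-in libraries lay below each wild-type library, while knock-in replicate 1 lay above wild-type replicate 1 (log2 difference -0.12, SE 0.07). In the annotation 998 exon bases of Fgfr3 lie opposite another gene on the other strand, and the strand setting of the counting is not given in the sources used here.

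The second intermediate filament gene, Vim, averaged 6.35 ± 0.586 FPKM in knock-in and 6.85 ± 0.995 FPKM in wild type, and the folate enzyme gene Aldh1l1, a marker shared by most astrocytes, 16.9 ± 1.65 and 17.0 ± 1.26 FPKM in knock-in and wild type. S100b, a calcium-binding protein gene, averaged 93.1 ± 9.06 FPKM in knock-in and 95.8 ± 6.88 FPKM in wild type, and Ndrg2 360 ± 31.3 and 375 ± 16.2 FPKM (SD, n = 3 each throughout). For these 4 genes the difference was smaller than the spread in at least 1 genotype. Id3, an inhibitor of basic helix-loop-helix factors, averaged 25.4 ± 6.90 FPKM in knock-in and 27.0 ± 1.30 FPKM in wild type, with the highest library, at 32.7 FPKM, and the lowest, at 18.9 FPKM, both knock-in.

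Of the 2 glutamate transporter genes, Slc1a2 did not have its lowest level in knock-in replicate 3 and Slc1a3 did. Slc1a2, which encodes GLT-1, the main glutamate uptake carrier of the forebrain, had 190, 161 and 184 FPKM in knock-in replicates 1 to 3, against 171, 193 and 183 FPKM in wild-type replicates 1 to 3. Its lowest library was knock-in replicate 2, and knock-in replicate 3 stood within the wild-type range. Slc1a3, which encodes the second carrier, GLAST, had 65.6, 65.9 and 62.4 FPKM in knock-in, against 69.3, 66.3 and 70.1 FPKM in wild type, and each knock-in library was below each wild-type library. The gap between knock-in replicate 2 and wild-type replicate 2 was under 1 FPKM, and the log2 difference of -0.08 (SE 0.06, adjusted p = 0.997, fold interval 0.859 to 1.04) was not called. Groups did not overlap in this direction for 1 of the 33 genes, against 6.58% of all genes tested.

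The ratio of Slc1a2 to Slc1a3 within a library, which does not change with the number of astrocytes if both come from the same cells, was 2.90, 2.44 and 2.94 in knock-in and 2.47, 2.91 and 2.61 in wild type. The genotypes overlapped (exact permutation test, two-sided, p = 0.9; 0.1 is the smallest p that 3 against 3 allows). Glul, which turns captured glutamate into glutamine, averaged 364 ± 30.9 FPKM in knock-in and 363 ± 4.41 FPKM in wild type, a fold interval of 0.879 to 1.13. Of its 50-base stretches 11.9% also occur in transcripts of other annotated genes, mainly the pseudogene Glns-ps1, so some of its reads could be assigned elsewhere. Slc7a10, an exchanger of small neutral amino acids, averaged 14.6 ± 2.48 FPKM in knock-in and 14.5 ± 0.514 FPKM in wild type (SD, n = 3 each).

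Among the genes of gap junctions and of ion and water transport, 6 were lower and 3 higher on average, 2 and 7 without knock-in replicate 3, and 0 of 9 were called. Gja1, which encodes connexin 43, had 16.1, 16.0 and 14.6 FPKM in knock-in, against 15.9, 15.02 and 16.2 FPKM in wild type. It was among the steadiest of the genes, with a within-group SD of 0.065 on the log2 scale and a fold interval of 0.894 to 1.0977. Gjb6, which encodes connexin 30, had 21.1, 16.0 and 13.5 FPKM in knock-in, against 18.6, 14.97 and 17.8 FPKM in wild type. Both its highest and its lowest library were knock-in, and the ratio of Gja1 to Gjb6 was 0.762, 0.999 and 1.08 in knock-in and 0.853, 1.003 and 0.909 in wild type, with overlap (exact permutation test, p = 1.0).

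Aqp4, the water channel of the endfeet, had 15.1, 17.3 and 14.1 FPKM in knock-in, against 14.4, 16.0 and 15.5 FPKM in wild type. The wild-type values lay inside the knock-in range (log2 difference 0.01, SE 0.08, fold interval 0.882 to 1.16). Kcnj10, which encodes the potassium channel Kir4.1, averaged 38.8 ± 6.00 FPKM in knock-in and 42.2 ± 2.76 FPKM in wild type, with 31.9 FPKM in knock-in replicate 3 against 39.6 to 45.1 FPKM in the rest. Its fold interval was 0.758 to 1.103.

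Atp1b2, a beta subunit of the sodium pump, had 112, 98.4 and 85.0 FPKM in knock-in, against 101, 101 and 71.0 FPKM in wild type. Its lowest library was wild-type replicate 3, which was the lowest for 3 of the 33 genes. The log2 difference of 0.12 (SE 0.16) turned to -0.04 without that library. Cldn10, a claudin gene, had 12.2, 12.1 and 11.5 FPKM in knock-in, against 12.2, 11.6 and 11.5 FPKM in wild type, the narrowest span of the 33 genes at 1.07-fold between highest and lowest library. Mlc1 and Hepacam, which encode partners in one membrane complex of the endfeet, averaged 62.2 ± 6.33 and 32.1 ± 3.28 FPKM in knock-in and 64.1 ± 0.969 and 34.7 ± 2.24 FPKM in wild type. Both were lowest in knock-in replicate 3. Slc4a4, the sodium bicarbonate cotransporter, was not, and averaged 21.4 ± 1.62 FPKM in knock-in and 22.3 ± 1.94 FPKM in wild type (SD, n = 3 each).

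The metallothioneins, small cysteine-rich proteins that bind zinc and copper, are encoded side by side on chromosome 8. On GRCm38 Mt3 lies at 94152607 to 94154146, Mt2 at 94172664 to 94173568 and Mt1 at 94179082 to 94180327, all on the plus strand, so that the 3 genes span 27721 bases. Mt1 and Mt2 are known to be induced by metals, glucocorticoids and stress, through metal response elements bound by the factor MTF-1, whereas Mt3 is the brain form and is less inducible. The 250 bases before a RefSeq start of each gene are shown because these neighbours were compared across libraries (RefSeq, GRCm38.p6, plus strand, 5′ to 3′). The positions above are those of GENCODE M21, whose starts of Mt1 and Mt2 differ from the RefSeq starts just after these windows. Capitals mark matches on either strand to the core of the metal response element, searched as TGCACNC or TGCGCNC.

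Mt1, chr8:94178839-94179088: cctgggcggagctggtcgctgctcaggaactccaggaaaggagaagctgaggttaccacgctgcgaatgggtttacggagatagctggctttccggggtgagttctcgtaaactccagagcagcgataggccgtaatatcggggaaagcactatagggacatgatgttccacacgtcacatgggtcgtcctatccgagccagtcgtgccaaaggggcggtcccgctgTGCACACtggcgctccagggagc
Mt2, chr8:94172368-94172617: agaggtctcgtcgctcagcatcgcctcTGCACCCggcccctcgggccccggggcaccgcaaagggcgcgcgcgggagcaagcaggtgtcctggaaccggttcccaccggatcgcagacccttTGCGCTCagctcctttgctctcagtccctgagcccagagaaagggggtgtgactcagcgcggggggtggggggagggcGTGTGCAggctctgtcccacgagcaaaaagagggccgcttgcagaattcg
Mt3, chr8:94152357-94152606: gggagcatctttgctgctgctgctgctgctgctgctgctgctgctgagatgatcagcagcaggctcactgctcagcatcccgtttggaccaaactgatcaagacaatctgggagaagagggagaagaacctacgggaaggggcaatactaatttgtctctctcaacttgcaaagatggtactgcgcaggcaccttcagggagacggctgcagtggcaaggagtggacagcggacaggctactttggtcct

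The window of Mt1 held 1 match, that of Mt2 held 3 and that of Mt3 held 0, which says only that these letters are not in that window. Bases outside the windows shown, before or after them, are not part of these counts. The counts therefore do not rank the 3 genes by their metal response elements. Such a match was present in 7 of the 35 windows found for 27 of the 33 astrocyte genes, and in 21.4% of all 32851 windows of the same length, so the astrocyte windows held it about as often as the rest.

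Mt1 had 145, 147 and 121 FPKM in knock-in replicates 1 to 3, against 161, 125 and 133 FPKM in wild-type replicates 1 to 3. Mt2 had 112, 121 and 94.9 FPKM in knock-in, against 132, 103 and 103 FPKM in wild type. Both genes put the 6 libraries in the same order, with wild-type replicate 1 highest and knock-in replicate 3 lowest, and the genotypes overlapped in both. Their ratio, Mt1 over Mt2, stayed between 1.21 and 1.29 in knock-in and between 1.22 and 1.29 in wild type, while no 50-base stretch of their annotated transcripts is shared. Mt3 had 188, 211 and 159 FPKM in knock-in, against 194, 178 and 172 FPKM in wild type. It had the same lowest library, but knock-in replicate 2 was its highest.

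The log2 differences were -0.02 for Mt1 (SE 0.12, fold interval 0.817 to 1.19), -0.04 for Mt2 (SE 0.13, fold interval 0.792 to 1.195) and 0.03 for Mt3 (SE 0.11, fold interval 0.856 to 1.22), each with an adjusted p of 0.997. Without knock-in replicate 3 they were 0.07, 0.06 and 0.14. In the annotation 432 exon bases of Mt2 lie opposite another gene on the other strand.

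**Figure D3:**
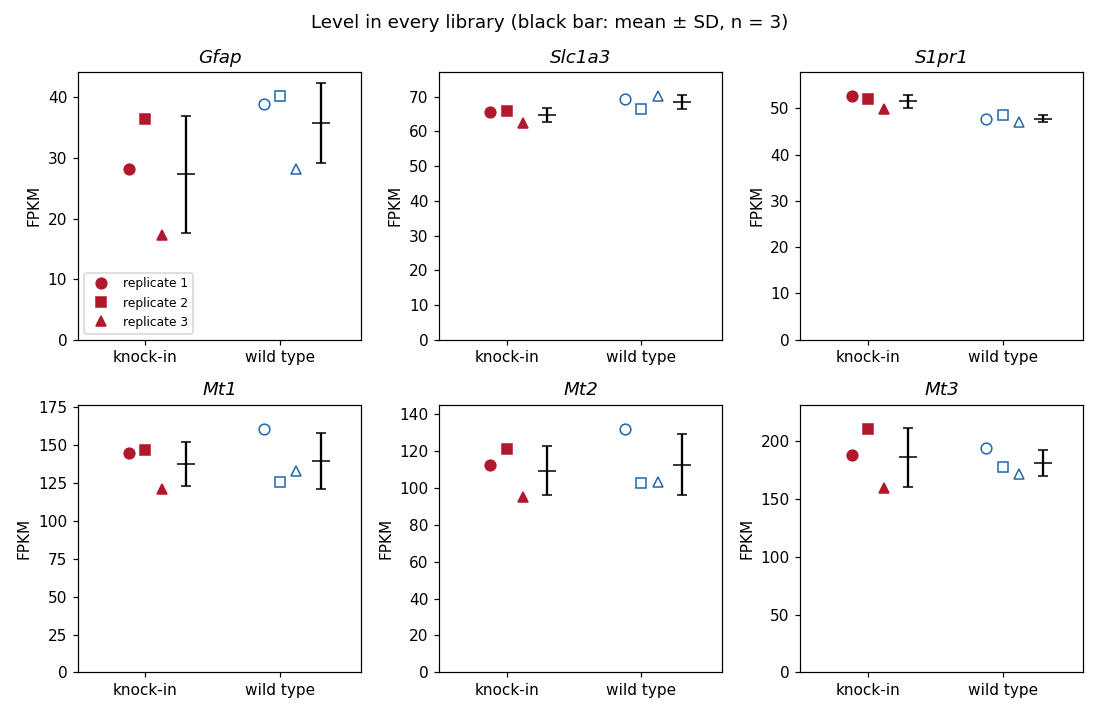
FPKM (y axes, from 0) of Gfap, Slc1a3, S1pr1, Mt1, Mt2 and Mt3 in every library of the 2 genotypes (x axes), with filled red marks for knock-in, open blue marks for wild type, the mark's shape for the replicate number, and black bars for the mean ± SD (n = 3). Groups do not overlap for Slc1a3 (lower in knock-in) and S1pr1 (higher in knock-in), and knock-in replicate 3 is the lowest library for Gfap, Slc1a3 and the 3 metallothioneins.

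Metabolic genes gave 3 lower and 2 higher, and 1 lower and 4 higher without knock-in replicate 3, with 0 of 5 called. Apoe, the main lipid carrier made by astrocytes, averaged 386 ± 55.8 FPKM in knock-in and 421 ± 32.8 FPKM in wild type, with 325 FPKM in knock-in replicate 3 against 397 to 459 FPKM in the rest. Clu averaged 210 ± 17.5 FPKM in knock-in and 221 ± 17.2 FPKM in wild type, and Aldoc 249.7 ± 21.8 and 247 ± 19.4 FPKM. The acyl-CoA synthetase gene Acsbg1 averaged 49.9 ± 5.82 FPKM in knock-in and 49.4 ± 0.992 FPKM in wild type, and the glycogen-targeting phosphatase subunit gene Ppp1r3c 15.5 ± 2.26 and 15.8 ± 1.201 FPKM (SD, n = 3 each). All 5 were lowest in knock-in replicate 3.

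Among receptors and secreted proteins S1pr1, a receptor for sphingosine 1-phosphate that endothelial cells express as well, was the gene with the smallest p of the 33. Its level was 52.6, 52.1 and 49.9 FPKM in knock-in and 47.7, 48.6 and 47.1 FPKM in wild type. Each knock-in library was above each wild-type library, replicate 3 included. The mean was 51.5 ± 1.46 FPKM in knock-in and 47.8 ± 0.760 FPKM in wild type (SD, n = 3 each), a log2 difference of 0.11 (SE 0.05, unadjusted p = 0.0915 and adjusted p = 0.997 in limma), which was not called. It kept its sign without each library in turn, at 0.09 to 0.13. Groups did not overlap in this direction for 1 of the 33 genes, against 2.92% of all genes tested. Genes of endothelial and mural cells gave 5 higher and 8 lower of 13 tested, with 0 called and summed levels of 174, 173 and 152 FPKM in knock-in replicates 1 to 3 and 167 to 171 FPKM in wild type, and their part in the S1pr1 level was not tested.

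The matrix protein gene Sparcl1 averaged 475 ± 50.5 FPKM in knock-in and 493 ± 23.01 FPKM in wild type. The neurotensin receptor gene Ntsr2 averaged 89.8 ± 11.3 FPKM in knock-in and 96.4 ± 5.48 FPKM in wild type, and the receptor gene Gpr37l1 108 ± 12.5 and 109.8 ± 2.86 FPKM (SD, n = 3 each). These 3 genes again had their lowest level in knock-in replicate 3, at 417, 77.0 and 93.7 FPKM.

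Ratios between astrocyte genes within a library were computed for 7 pairs. Gfap over Aldh1l1 was 1.54, 2.10 and 1.14 in knock-in and 2.11, 2.41 and 1.76 in wild type, and Gfap over Vim was 4.503, 5.22 and 2.96 in knock-in and 5.72, 6.84 and 3.58 in wild type. Both ratios were lowest in knock-in replicate 3, so Gfap was low there also relative to other astrocyte genes, and both overlapped between genotypes. The exact permutation p was 0.2 for Gfap over Aldh1l1 and 0.4 for Gfap over Vim, and the adjusted p over the 7 ratios was 0.933 for both, with the other 5 ratios at 0.933 or 1.0.

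Further astrocyte genes were read from 7 lists, none of which had a called gene. Of 44 tested genes enriched in astrocytes, outside the 33, 17 were higher and 27 lower, with a median log2 difference of -0.03 and a per-library median of 0.04, 0.03 and -0.13 in knock-in replicates 1 to 3, against -0.01 to 0.01 in wild type. The low level of knock-in replicate 3 was thus present in these genes too. Gpc5, a heparan sulphate proteoglycan gene, averaged 7.76 ± 0.689 FPKM in knock-in and 6.84 ± 0.808 FPKM in wild type, and Hes5, a Notch target, 9.63 ± 2.14 and 8.16 ± 0.359 FPKM. In the other direction the cytochrome gene Cyp4f15 averaged 7.82 ± 0.218 FPKM in knock-in and 8.62 ± 0.633 FPKM in wild type, without overlap, and the fatty acid transporter gene Slc27a1 14.1 ± 1.27 and 15.5 ± 0.504 FPKM (SD, n = 3 each).

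Genes of reactive astrocytes gave 10 higher and 6 lower of 16 tested, with a median of 0.01, and the other 16 measured genes of this list were under the minimum level. Lcn2 and C3, hallmarks of strongly reactive astrocytes, were near 0, at 0.0307 to 0.135 and 0.0444 to 0.0968 FPKM in knock-in and at 0.0531 to 0.111 and 0.0934 to 0.149 FPKM in wild type. Serpina3n, an inhibitor made by reactive astrocytes, averaged 2.20 ± 0.331 FPKM in knock-in and 2.53 ± 0.388 FPKM in wild type, and Stat3, a regulator of reactivity, 5.62 ± 0.364 and 5.99 ± 0.292 FPKM. The small heat shock protein gene Hspb1 averaged 6.40 ± 1.09 FPKM in knock-in and 5.44 ± 0.191 FPKM in wild type, and Fbln5, a matrix protein gene, 1.62 ± 0.138 and 1.46 ± 0.0170 FPKM (SD, n = 3 each). Of these 4 genes, the genotypes overlapped in all but Fbln5.

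Transport of amino acids and transmitters gave 8 higher and 7 lower of 15. Slc6a9, the glycine transporter of glia, averaged 7.52 ± 0.416 FPKM in knock-in and 8.40 ± 0.337 FPKM in wild type (SD, n = 3 each). The genotypes did not overlap, with a log2 difference of -0.14 (SE 0.06, adjusted p = 0.997). The glutamine carriers Slc38a2 and Slc38a5 averaged 13.2 ± 0.748 and 3.50 ± 0.318 FPKM in knock-in and 14.4 ± 1.39 and 3.25 ± 0.451 FPKM in wild type, with overlap.

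Potassium, water and perivascular anchoring genes gave 2 higher and 10 lower of 12, with a median of -0.06. Dag1, the dystroglycan that anchors endfeet to the basal lamina, had 20.5, 19.9 and 16.2 FPKM in knock-in, against 20.9, 22.4 and 22.5 FPKM in wild type. The groups did not overlap, with knock-in replicate 3 farthest below (log2 difference -0.21, SE 0.09, adjusted p = 0.997). Its partner dystrobrevin, Dtna, averaged 19.3 ± 1.34 FPKM in knock-in and 20.7 ± 0.691 FPKM in wild type, and the carbonic anhydrase gene Car2 55.1 ± 5.61 and 52.9 ± 5.76 FPKM (SD, n = 3 each). Without knock-in replicate 3 the list gave 7 higher and 5 lower.

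Lactate and glycogen genes gave 6 higher and 10 lower of 16, with a median of -0.03. Ldha, lactate dehydrogenase A, averaged 60.8 ± 6.00 FPKM in knock-in and 55.7 ± 3.74 FPKM in wild type. The lactate carrier gene Slc16a1 averaged 10.01 ± 0.833 FPKM in knock-in and 10.9 ± 1.01 FPKM in wild type, and Pdk4, a kinase that holds back pyruvate oxidation, 2.36 ± 0.174 and 2.74 ± 0.238 FPKM (SD, n = 3 each). These 3 genes overlapped between genotypes.

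Beside the metallothioneins, zinc and copper handling genes gave 8 higher and 8 lower of 16. Mtf1, the metal-sensing factor, averaged 4.02 ± 0.0985 FPKM in knock-in and 4.27 ± 0.228 FPKM in wild type, the copper carrier gene Slc31a1 6.59 ± 0.305 and 6.95 ± 0.353 FPKM, and the zinc importer gene Slc39a10 15.6 ± 1.46 and 14.6 ± 0.460 FPKM. Slc30a3, the vesicular zinc transporter of glutamatergic neurons, had 5.44, 2.07 and 0.354 FPKM in knock-in, against 1.06, 0.334 and 0.427 FPKM in wild type, highest in the same libraries as Slc17a7. Glucocorticoid-responsive genes gave 1 higher and 10 lower of 11, with a median of -0.03, where 56.4% of all tested genes were lower. Wild-type replicate 3 was the highest library for 7 of the 11. Wild-type replicate 2 was the lowest for 4 and knock-in replicate 3 for 4. Fkbp5, a chaperone of steroid receptors, averaged 7.98 ± 0.161 FPKM in knock-in and 8.86 ± 0.758 FPKM in wild type, and Tsc22d3, encoding the leucine zipper GILZ, 14.8 ± 3.38 and 14.3 ± 4.02 FPKM (SD, n = 3 each), both with overlap.

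Markers of other cell types moved with the low library to different extents. In knock-in replicate 3 the median against the wild-type mean stood at -0.17 for 14 microglia genes, -0.12 for 13 endothelial and mural genes, -0.43 for 12 genes of myelinating oligodendrocytes, -0.39 for 9 of their precursors, -0.40 for 7 ependymal genes and -0.82 for 5 blood genes, and 0.12 for 14 genes of striatal projection neurons. The astrocyte median of -0.20 lay among these non-neuronal values. In the same library 10 genes of subventricular progenitors and neuroblasts stood at -0.36, and knock-in replicate 1 was close to it at -0.35. The 7 genes of cortical excitatory neurons stood at -0.18, inside the wild-type span of -0.24 to 0.40. A further 4 genes of meninges and fibroblasts stood at -0.28, and 2 of choroid plexus at -2.03. For choroid plexus wild-type replicate 2, at 1.61, raised the wild-type mean, and the remaining libraries lay between -1.01 and -0.69. In knock-in replicates 1 and 2 the astrocyte genes, at 0.03 and 0.04, parted from oligodendrocyte genes, at -0.15 and -0.09, and from ependymal genes, at -0.55 and -0.12. Microglia genes, at 0.01 and 0.05 in these libraries, stayed close to the astrocyte genes.

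As counts, 11 of 12 genes of myelinating oligodendrocytes, 9 of 9 of precursors and 7 of 7 ependymal genes were lower on average in knock-in. So were 9 of 10 genes of subventricular progenitors and neuroblasts, where 56.4% of all tested genes were lower, and 0 were called in these lists. At an unadjusted p under 0.05 in limma the counts were 5, 2, 4 and 6 in that order, against 4.27% of all genes. The astrocyte genes had 0 of 33. Without knock-in replicate 3, 11 of 12, 8 of 9, 7 of 7 and 10 of 11 were lower, against 52.1% of all genes. The defining gene Mbp averaged 442 ± 70.1 FPKM in knock-in and 543 ± 37.5 FPKM in wild type, and the ependymal gene Foxj1 5.71 ± 1.101 and 7.58 ± 0.407 FPKM (SD, n = 3 each). Microglia genes gave 7 higher and 7 lower of 14, and 11 and 3 without knock-in replicate 3. Myelin tracts and the ventricle wall hold astrocytes rich in Gfap, and the part of these neighbouring tissues in the Gfap level was not tested.

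**Figure D4:**
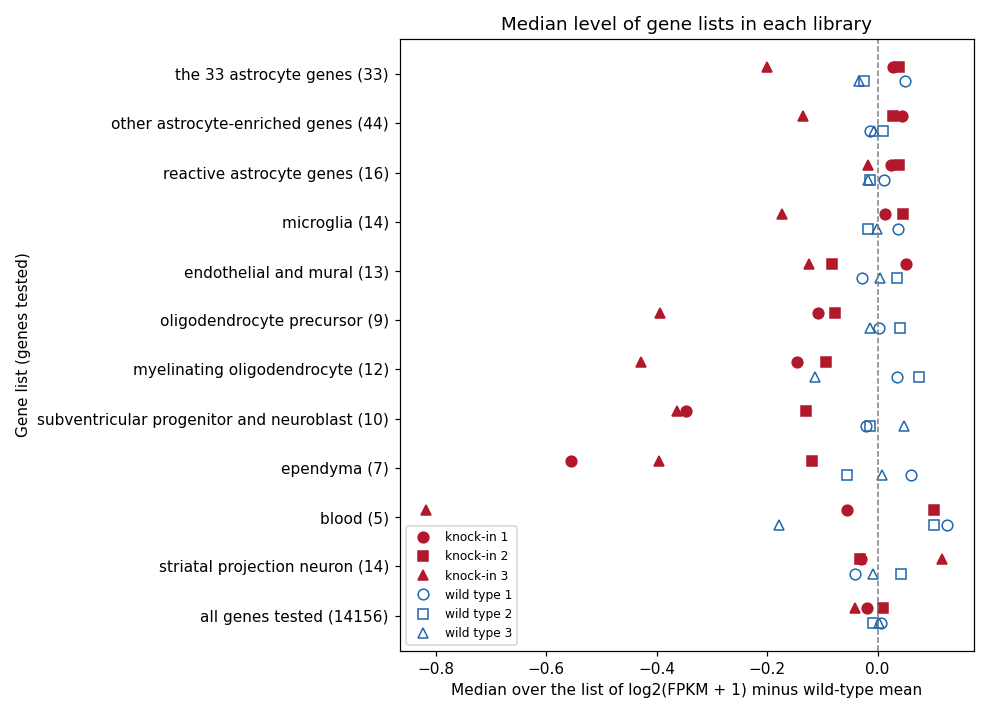
Median over each gene list (y axis, with the number of genes tested) of log2(FPKM + 1) minus the wild-type mean (x axis), with a filled red mark for each knock-in library and an open blue mark for each wild-type library, the shape giving the replicate number. For the 33 astrocyte genes knock-in replicate 3 lies at -0.20 and the other 5 libraries between -0.03 and 0.05, and striatal projection neuron genes are highest in that same library, at 0.12.

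With the level of cortical excitatory markers as a covariate, the median of the 33 genes was -0.17, with 30 lower and 3 higher, beside a median of -0.03 over all genes. Gfap then differed by -0.82 and Hepacam by -0.25 on the log2 scale, and still 0 of the 33 genes were called (adjusted p of at least 0.313 in limma). The median of the cortical markers, set against the wild-type mean, came to 1.18, 1.07 and -0.18 in knock-in replicates 1 to 3 and 0.40, -0.12 and -0.24 in wild-type replicates 1 to 3, so that genotype and cortical level were partly aligned. Within knock-in, replicate 3 was lowest both in these markers and in the astrocyte median, at -0.20. The covariate was not fitted without that library.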

How the data were processed

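Libraries were prepared with a TruSeq RNA kit from RNA of a miRNeasy kit, per the labels' protocols. The authors' values are FPKM, 1 for each gene in each library, as the column headers of the deposited table say. The submitters' processing notes list HISAT2, StringTie, SAMtools and FastQC, with neither versions nor roles. Build, annotation and strand setting: not given in the sources used here. Depth is unknown, because FPKM values carry no read counts. Precision was taken from the spread between libraries. FPKM of a library summed to 314146 to 335508. The table held 0 values at 0, so a gene at 0 in any library appears to have no row.

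Tests used log2(FPKM + 1), a scale that understates differences of low genes, for genes averaging 1 FPKM or more, with limma 3.58.1 in R 4.3.3 (trended, robust, Benjamini-Hochberg). The members and lists were chosen with earlier results of these data known. Genes described with all 6 values are the 4 with the smallest p in each direction, the metallothioneins, glutamate transporters, connexins, Gfap and Aqp4. From each further list up to 2 genes per direction with the smallest p were taken, and some of these are not reported here. Dag1 and Slc30a3 with all values, and Lcn2, C3, Drd1, Drd2, Slc17a7, Ttr, Xist, Lrrk2, Mbp and Foxj1, were named after their values were seen or as defining markers. In data simulated for this comparison (14156 genes), 50 genes each were changed 1.2-, 1.5-, 2- or 3-fold within the same fit. Of these, 12%, 82%, 90% and 96% were called in the right direction, and 12 unchanged genes were called too. Noise was drawn for each gene alone, without shifts shared by a whole library. Many planted changes also ease the adjusted threshold, whereas the real fit called 3 genes. These shares can therefore exceed those reached in the real data. Positions, overlaps and shared 50-base stretches are from GENCODE M21 on GRCm38, matched by gene identifier. Alternatives covered the pseudocount, the minimum level, scaling, a replicate block, a cortical covariate, limma without trend or robust estimation, and leaving out each library.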

Additional observations from a re-analysis of the deposited data

How the results depend on the processing

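None of the 33 astrocyte genes was called under any of the 14 alternatives run, where their lowest adjusted p was 0.313 in limma, with the cortical covariate. With that covariate 9 of them had an unadjusted p under 0.05, and their median log2 difference was -0.17, against -0.04 as designed. The median ranged from -0.10 to 0.04 when 1 library was left out, and the count of called genes over the whole table from 3 to 15, being 11, 15 and 6 without knock-in replicate 1, 2 or 3 and 8 without wild-type replicate 2. The numbers were not taken as pairs, because the titles do not say that a number marks a pair. Same-numbered libraries deviated from their group means with correlations of -0.011, -0.074 and 0.186 over genes. Libraries of different numbers gave -0.184 to 0.21, and with 3 libraries per group such values cannot settle whether they are pairs. A replicate block cannot change the log2 differences in this balanced design, only their p-values. With it, 2 genes of the table were called instead of 3, and Gfap had an unadjusted p of 0.0096 (adjusted p = 0.998, limma). Knock-in replicate 3 was the lowest library for 23 of the 33 genes with median-of-ratios scaling and for 22 with quantile normalization.

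Signs of small differences depended on the setting. On the log2 scale, quantile normalization gave 0.039 for Glul, -0.018 for Mt3, -0.0022 for Acsbg1 and 0.0077 for Slc7a10, and median-of-ratios scaling 0.018 for Glul, 0.0070 for Aldh1l1, 0.0057 for Gja1 and 0.016 for Slc7a10. The covariate gave -0.11 for Aldoc, -0.13 for Mt3, 0.0036 for Slc1a2, -0.074 for Atp1b2, -0.13 for Acsbg1, 0.050 for Slc4a4, -0.034 for Aqp4 and -0.029 for Cldn10. Leaving out 1 library changed the sign for 25 genes, with ranges of -0.060 to 0.10 for Acsbg1, -0.069 to 0.062 for Aldh1l1, -0.044 to 0.085 for Aldoc, -0.062 to 0.076 for Aqp4, -0.044 to 0.22 for Atp1b2, -0.00076 to 0.041 for Cldn10, -0.12 to 0.0016 for Clu, -0.043 to 0.030 for Gja1, -0.20 to 0.10 for Gjb6, -0.069 to 0.047 for Glul, -0.10 to 0.060 for Gpr37l1, -0.31 to 0.065 for Id3, -0.20 to 0.0028 for Kcnj10, -0.10 to 0.036 for Mlc1, -0.094 to 0.084 for Mt1, -0.12 to 0.079 for Mt2, -0.064 to 0.14 for Mt3, -0.11 to 0.0092 for Ndrg2, -0.10 to 0.089 for Ppp1r3c, -0.10 to 0.035 for S100b, -0.084 to 0.037 for Slc1a2, -0.12 to 0.0050 for Slc4a4, -0.11 to 0.13 for Slc7a10, -0.11 to 0.033 for Sparcl1 and -0.18 to 0.0022 for Vim. The other 8 genes kept their sign in these fits. The cause of these changes was not tested.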
